A study of Mus musculus with 6 samples.

Results

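*Myc* and 40 genes of ribosome biogenesis were followed across B-cell states and between the genotype labels in single cell RNA-seq of mouse germinal center (GC) B-cells. The 41 members were chosen by gene symbol, as the rows that carry their names among the 31053 genes of each count table. No measured value entered this rule, but the list was drawn up with earlier results of these data known. *Myc* lies at chr15:61985391-61990374 on the plus strand of GRCm38, and the 41 members lie on 17 chromosomes. By their known roles they comprised 1 transcription factor (*Myc*), 5 nucleolar scaffold or nucleolar regulatory proteins, 4 box C/D and 4 box H/ACA small nucleolar ribonucleoprotein (snoRNP) components, 2 subunits of RNA polymerase I, 12 factors of the small ribosomal subunit and 13 of the large subunit.

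The series held 6 libraries, 3 labelled as wild-type controls (*Smc3* wt/wt) and 3 labelled as heterozygous for *Smc3* (*Smc3* wt/-). All mice carried *Cγ1*-Cre, a recombinase expressed from the *Ighg1* locus and active in B-cells that enter the GC reaction, and the heterozygous mice lost 1 copy of *Smc3*, a core subunit of cohesin. According to the methods of the study, splenic cells were sorted on the eighth day after immunization with sheep red blood cells, and 3′ libraries were prepared on the 10x Genomics platform. The methods name 6 wt/wt and 3 wt/- mice, of which further wt/wt libraries were not analysed here, but neither the age of the mice nor which mouse gave which library is given in the sources used here, so p-values measure the spread between these libraries, which may in part be technical.

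After filtering, 20809 cells were kept, from 1011 to 4963 per library, with a median of 3329 to 6265 unique molecular identifiers (UMIs) per cell. Pairs of libraries shared 4 to 36 cell barcodes, at most 0.989% of the smaller library. *Smc3* ranged from 130 to 166 CPM (UMIs scaled to a common library size by the TMM method) in the wt/wt and from 127 to 186 CPM in the wt/- centroblast-like cells. The adjusted p for *Smc3* was 0.9998 (edgeR quasi-likelihood test, Benjamini-Hochberg). Since 3′ tags can also come from the recombined allele, whose deletion lies upstream, these values do not check the labels. The library labelled *Smc3* wt/- replicate 2 stood apart, with 51.9% of its UMIs from immunoglobulin genes against 2.37 to 3.90% in the other 5. Its cells in the GC classes also went against the label of GC B-cells. The summed level of 8 pan-GC markers was 539 CPM, here computed without immunoglobulin UMIs (non-Ig CPM), there and 1864 to 2624 elsewhere, the naive and memory B-cell markers reached 1139 against 287 to 339, and the myeloid markers reached 293 against 7.5 to 12. The main comparisons below are therefore also given without this library, and a value that names no such alternative includes it. Cells were assigned to classes by clustering without the members and without the other tested genes of the *Myc* pathway. A name with "-like" was given to a cluster after its leading genes had been seen, from transcripts and no protein marker, so these classes need not match those of the study, and values that differ from it can be due to the rebuilt names.

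Ribosome biogenesis starts in the nucleolus, where RNA polymerase I transcribes the rRNA precursor. Box C/D snoRNPs guide its 2′-O-methylation and box H/ACA snoRNPs its pseudouridylation, while large sets of assembly factors cleave the precursor and build the small and the large subunit. MYC, which binds E-box sequences with its partner MAX, is known to activate many of these genes, and in the GC it is transiently expressed in light zone B-cells that receive T-cell help and are selected for further division.

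The canonical E-box, CACGTG, was searched on both strands in the window from 250 bases before to 50 bases after the annotated start site (RefSeq, GRCm38.p6) because it is the sequence best known for MYC binding. It was found in 9 of the 34 members with a window (26.5%) and in 8.09% of 27025 genes. The variant CACGCG was found in 35.3% of these members and 10.5% of genes, and either of the motifs in 55.9% and 17.2%. *Dcaf13*, *Bop1*, *Fbl*, *Rrs1*, *Myc*, *Npm1* and *Rrp12* had no window in the table. The 9 canonical matches are given on the strand of the gene, with the E-box in capitals. These matches are descriptions of the sequence and not evidence of binding.
*Nop2*, first E-box base 60 bases before the start site, chr6:125131811-125131840 (+): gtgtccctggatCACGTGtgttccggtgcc
*Utp18*, 20 bases before, chr11:93885769-93885798 (-): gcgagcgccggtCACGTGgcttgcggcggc
*Pes1*, position 3 after the start site, chr11:3963965-3963994 (+): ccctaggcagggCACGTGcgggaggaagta
*Wdr43*, position 18, chr17:71616220-71616249 (+): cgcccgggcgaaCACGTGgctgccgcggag
*Nle1*, position 24, chr11:82908355-82908384 (-): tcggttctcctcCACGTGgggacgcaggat
*Tsr1*, position 25, chr11:74898092-74898121 (+): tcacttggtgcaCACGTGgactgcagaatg
*Ltv1*, position 29, chr10:13193092-13193121 (-): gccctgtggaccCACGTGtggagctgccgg
*Utp20*, position 38, chr10:88826765-88826789 (-): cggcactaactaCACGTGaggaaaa
*Mybbp1a*, position 41, chr11:72441355-72441376 (+): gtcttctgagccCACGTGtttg

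Across the B-lineage the 40 ribosome biogenesis members were highest in centrocyte-like (CC-like) cells, the light zone state, and in a GC class led by *Hspd1*. Levels are non-Ig CPM of each library and class, given without a test because the classes come from the same cells. Their summed level was 10013 ± 863 (SD, n = 6) in *Hspd1*-led cells and 8084 ± 257 in CC-like cells, against 5600 ± 500 in S-phase GC B-like and 3620 ± 164 in centroblast-like (CB-like) cells. Outside the GC it was 5061 ± 1571 in plasmablast-like (PB-like), 3480 ± 457 in naive/memory-like and 1447 ± 338 in plasma cell-like (PC-like) cells. A class led by haemoglobin genes, which received no cell type name, was at 3168 ± 476. The 8 pan-GC markers summed to 1189 there in replicate 2 labelled wt/- and to 2230 to 3093 in the other libraries. In CC-like cells these sums were 352 and 1805 to 2573. The erythroid markers of the haemoglobin-led class summed to 154890 in replicate 2 labelled wt/- and to 115 to 3427 elsewhere. Every library of the *Hspd1*-led class lay above every library of the CC-like class, and these above all other classes. CB-like, naive/memory-like and haemoglobin-led cells overlapped in their ranges, as did PB-like and S-phase cells. Without replicate 2 labelled wt/-, the *Hspd1*-led class averaged 9677 ± 293, CC-like cells 8153 ± 214, PB-like cells 5588 ± 1004, S-phase cells 5432 ± 321 and CB-like cells 3648 ± 167, so that PB-like and S-phase cells, which overlapped, changed places. *Hspd1*-led cells were also the deepest of the GC classes, with a median of 11699 to 20100 UMIs per cell against 3487 to 6058 in CC-like cells, and the part of depth or of undetected doublets in their level was not tested.

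**Figure D1:**
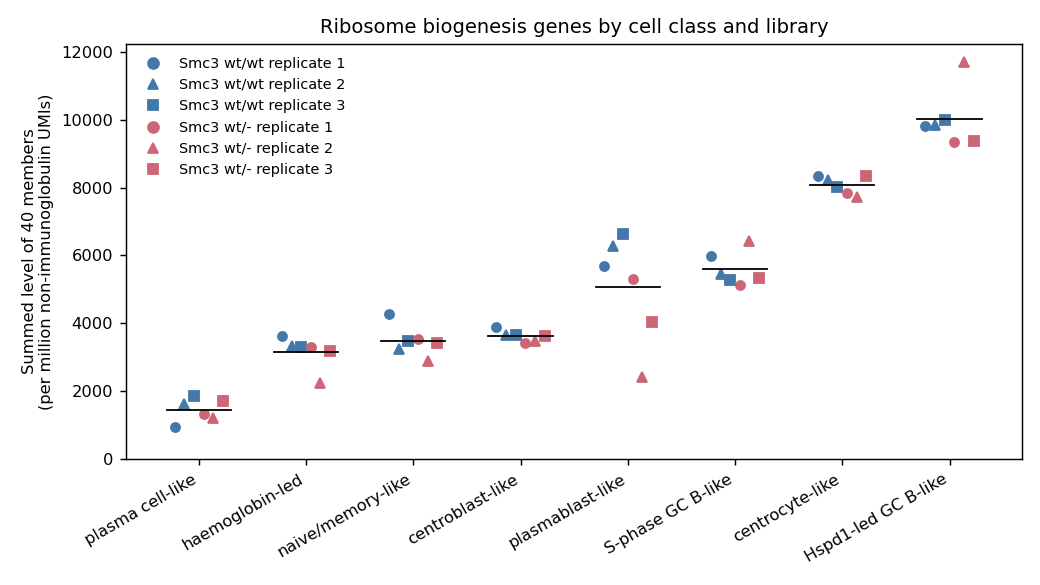
Summed level of the 40 ribosome biogenesis members in non-Ig CPM (y axis) in each cell class (x axis). Each point is a library, colored by genotype label with a symbol per replicate, and bars are means over libraries. The *Hspd1*-led class sits between 9354 and 11691 and the PC-like class between 954 and 1846, while the 3 wt/- libraries sit below the 3 wt/wt libraries in PB-like cells.

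The pattern was shared by nearly all members. Of the 40, 26 were highest in *Hspd1*-led and 14 in CC-like cells, and each member had these as its highest classes among the 7 named ones. PC-like cells were lowest for 36 members, CB-like cells for *Gnl3*, *Nle1* and *Ltv1*, and naive/memory-like cells for *Bop1*. Every *Hspd1*-led library lay above every CB-like library for 38 members, and every CC-like library above every CB-like library for 37. The share of all genes separated between classes was not computed. These counts, and those below in this paragraph, therefore do not show that the members stand out from other genes. CC-like and *Hspd1*-led cells could rarely be ordered, since their libraries were separated for 3 members, with *Hspd1*-led cells higher in 2 and lower in 1. Without replicate 2 labelled wt/- the 40 members divided into 21 highest in *Hspd1*-led and 19 in CC-like cells, 39 and 38 members were separated from CB-like cells, and *Hspd1*-led cells were higher than CC-like cells in 2 and lower in 3.

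**Figure D2:**
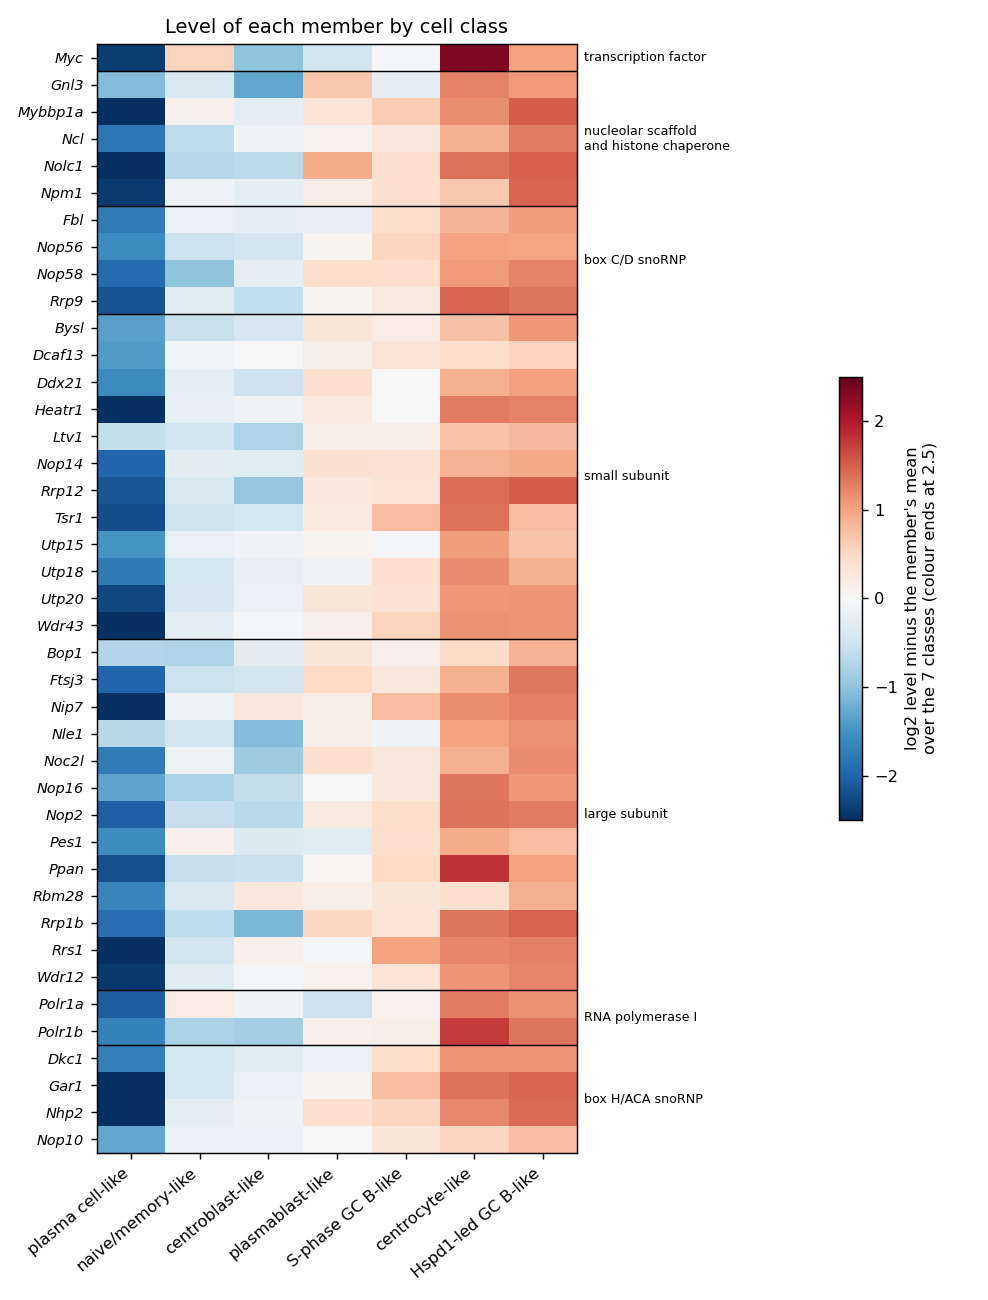
Mean log2 level (pseudocount 1) over libraries of each member (rows, grouped by role) in 7 cell classes (columns), shown as the difference from the mean of that member over the 7 classes. Red is above and blue below that mean. The CC-like and *Hspd1*-led columns are red in every row, the PC-like column is blue in every row, and the largest value in the CC-like column is that of *Myc*.

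*Myc* itself had a different peak. It averaged 130 ± 57 non-Ig CPM in CC-like cells, with 240, 94.1 and 93.1 in wt/wt replicates 1 to 3 and 138, 120 and 96.5 in wt/- replicates 1 to 3, the order used for all lists of 6 values below. The *Hspd1*-led class followed with 51.4 ± 20.5 (87.4, 34.9, 34.2, 59.4, 53.7 and 38.6). All 6 CC-like libraries were above all 6 *Hspd1*-led libraries, so that the class with the highest ribosome biogenesis sum was not the class with the highest *Myc*. Lower levels were found in naive/memory-like (39.9 ± 21.8), S-phase (25.8 ± 13.6), PB-like (19.8 ± 13.6), CB-like (12.6 ± 6.76) and PC-like cells (6.61 ± 6.04), where the ranges of neighbors overlapped. Replicate 1 labelled wt/wt had the highest *Myc* level in CC-like, *Hspd1*-led, naive/memory-like, S-phase and CB-like cells. A list of 8 immediate early genes (*Fos*, *Fosb*, *Jun*, *Junb*, *Egr1*, *Ier2*, *Dusp1* and *Zfp36*), chosen after seeing the data, was also highest there, with a summed 1096 in CC-like cells against 558 to 746 in the other libraries. Whether the handling of this library contributed to its *Myc* level was not tested.

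Among the nucleolar scaffold proteins, *Npm1*, a histone chaperone that organizes the granular part of the nucleolus, was at 951 ± 181 non-Ig CPM in CB-like, 1483 ± 354 in S-phase, 1795 ± 301 in CC-like and 3060 ± 503 in *Hspd1*-led cells. Its libraries in *Hspd1*-led cells were at 2524, 3099, 3213, 2601, 3918 and 3003, all above the highest CC-like library at 2150. *Ncl*, which encodes nucleolin, ran from 583 ± 63 in CB-like to 1154 ± 113 in CC-like and 1541 ± 260 in *Hspd1*-led cells. *Mybbp1a*, a nucleolar regulator of rRNA synthesis, varied most of all members over the classes (SD 1.65 on the log2 scale), from 11 ± 13 in PC-like to 149 ± 10 in *Hspd1*-led cells. *Nolc1* (SD 1.55), a chaperone of snoRNPs, reached 197 ± 20 in *Hspd1*-led and 139 ± 41 in PB-like cells and was at 44.3 ± 9.4 in CB-like cells. *Gnl3* (nucleostemin), a GTPase of proliferating cells, was at 191 ± 20 in CC-like, 172 ± 48 in *Hspd1*-led and 33.8 ± 13 in CB-like cells. Since *Npm1* and *Ncl* carry a large part of the sum, the other 38 members were also summed alone, and these gave 5412 ± 422 in *Hspd1*-led and 5135 ± 514 in CC-like cells, with overlapping libraries, and 2086 ± 241 in CB-like cells.

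For box C/D, *Fbl*, the methyltransferase fibrillarin, was at 409 ± 15 in *Hspd1*-led, 364 ± 53 in CC-like, 172 ± 28 in CB-like and 64.1 ± 25.4 in PC-like cells. *Nop56* was at 290 ± 36, 292 ± 17, 105 ± 12 and 55.9 ± 27.6 in the same classes. For box H/ACA, *Dkc1*, the pseudouridine synthase dyskerin, was at 194 ± 21, 193 ± 19, 72.8 ± 11.7 and 28.6 ± 12.1. *Nhp2* was among the most variable members (SD 1.54), from 514 ± 51 in *Hspd1*-led to 36.1 ± 30.5 in PC-like cells, whereas its partner *Nop10* was among the least variable (SD 0.67), from 727 ± 73 to 176 ± 54. The spread in PC-like cells rests on few cells, since 5 of the 6 libraries held 12 to 22 of them and 1417 of the 1501 came from replicate 2 labelled wt/-.

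The catalytic subunits of RNA polymerase I were sparsely counted and had their highest means in CC-like cells, where *Polr1a* overlapped with *Hspd1*-led cells. *Polr1b* was at 31.7, 20.7, 20.2, 28.9, 12.7 and 24.5 non-Ig CPM there, all above the CB-like libraries, which ranged from 1.10 to 6.72. *Polr1a* was at 23.0 ± 4.1 in CC-like and 8.13 ± 2.0 in CB-like cells. Of the large subunit factors, *Nip7* (SD 1.65), which acts in pre-rRNA processing, was at 158 ± 12 in *Hspd1*-led cells and had no UMI in PC-like cells of 3 libraries. *Ppan* was at 176 ± 51 in CC-like, 96.2 ± 11.4 in *Hspd1*-led and 33.8 ± 11.8 in CB-like cells. *Bop1*, which works in a complex with *Pes1* and *Wdr12*, varied least of all members (SD 0.61), from 90.1 ± 11.2 in *Hspd1*-led to 29.5 ± 7.5 in naive/memory-like cells. The small subunit factors *Ltv1* (SD 0.63) and *Dcaf13* (SD 0.67) were also among the least variable. *Dcaf13* ran from 83.1 ± 10.0 in *Hspd1*-led over 55.2 ± 8.8 in CB-like to 32.7 ± 20.7 in PC-like cells.

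*Myc*-positive cells were counted as cells with at least 1 *Myc* UMI after every cell had been thinned to 2000 UMIs, which gives all cells the same depth. With each library given the same weight, they made up 18.9 ± 6.6% (SD, n = 6) of CC-like, 8.37 ± 3.13% of *Hspd1*-led, 7.15 ± 3.75% of naive/memory-like, 4.43 ± 2.62% of S-phase, 2.32 ± 2.36% of PB-like and 2.21 ± 1.23% of CB-like cells. Without replicate 2 labelled wt/- the means were 18.3, 8.54, 7.80, 4.06, 2.41 and 2.10% in the same order. The libraries of neighboring classes in this order overlapped, CC-like and *Hspd1*-led cells included (11.6 to 28.4% and 5.31 to 14.3%). In replicate 1 labelled wt/- the share in naive/memory-like cells (13.5%) was above that in *Hspd1*-led cells (8.63%). In PC-like cells, a cell type in which *Myc* is known to be repressed, the share was 3 of 1493 (0.201%), at a median depth before thinning of 7988 to 18320 UMIs per library. Of these cells 1412, and all 3 positive ones, came from replicate 2 labelled wt/-, so the share gives no background level for the other libraries, and the part of free RNA in the shares was not tested. T-cell-like cells reached 10.1% of the 179 cells left after thinning, with 66.9% of them too shallow to enter, and naive/memory-like cells lost 38%. Pooled over the cells of all libraries, the shares without thinning were 28.0% in CC-like and 32.1% in *Hspd1*-led cells. Pooled in the same way after thinning they were 15.9% and 7.36%.

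By genotype label, the share in all GC B-like cells was 9.87, 3.30 and 3.33% in the wt/wt and 5.69, 9.06 and 3.87% in the wt/- libraries. The exact binomial 95% intervals ran from 7.62 to 12.5%, 2.72 to 3.97%, 2.71 to 4.04%, 4.63 to 6.90%, 6.24 to 12.6% and 3.21 to 4.61% in the same order and cover counting error only. The groups overlapped, since replicate 1 labelled wt/wt and replicate 2 labelled wt/- were both high. The means were 5.50 ± 3.78% and 6.21 ± 2.64% (n = 3 each), a difference of 0.705 percentage points (exact two-sided permutation test, p = 0.8, where 3 against 3 libraries cannot go below 0.1). Without replicate 2 labelled wt/- the difference was -0.725 percentage points (exact permutation p = 1, smallest possible 0.2). Leaving out replicate 1 labelled wt/wt instead gave 2.89 percentage points with no overlap (exact permutation p = 0.2, the smallest possible), so the direction rests on single libraries. The share in replicate 2 labelled wt/- was 31 of 342 cells here, and 5.94% (6 of 101 cells) with no integration. In CC-like cells the shares were 28.4, 11.6, 14.6, 23.4, 22 and 13.6%, and with exact 95% intervals reaching from 8.39 to 40.7% the groups also overlapped (difference 1.48 percentage points, exact permutation p = 0.9, and 0.327 without replicate 2 labelled wt/-, exact permutation p = 1). Leaving out each library in turn moved this difference from -1.81 (without wt/wt replicate 2) to 6.57 percentage points (without wt/wt replicate 1), and it was 4.49 without wt/- replicate 3.

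**Figure D3:**
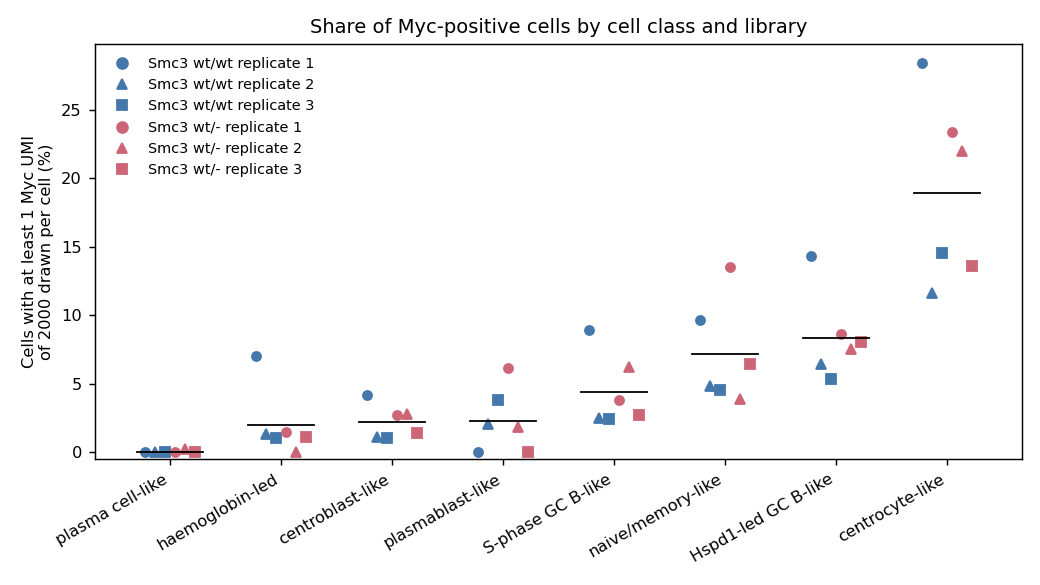
Percentage of cells with at least 1 *Myc* UMI of 2000 drawn per cell (y axis) in each class (x axis). Points are libraries, colored by genotype label with a symbol per replicate, and bars are means over libraries. CC-like cells range from 11.6 to 28.4%, and replicate 1 labelled wt/wt is the highest in every GC class.

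To find how the members differ between *Myc*-positive and *Myc*-negative GC B-like cells, UMIs were summed per library and arm over 512 positive and 11421 negative thinned cells and compared within libraries. The ribosome biogenesis members were higher in *Myc*-positive cells. Of the 40, 33 passed the filter on low counts and 28 were called higher (adjusted p under 0.05, edgeR quasi-likelihood test, Benjamini-Hochberg over 4703 genes, *Myc* itself left out), where 7.80% of all genes tested were called higher. The median log2 fold change was 0.65 over the members tested and -0.00 over all genes. Of the tested members 12 were higher in 6 of 6 libraries and 14 in 5 of 6. The share of all genes higher in as many libraries was not computed. The lowest of the per-library medians was 0.13, in replicate 2 labelled wt/-, and the others ran from 0.30 to 0.68. Without that library 29 of 35 tested members were called higher, against 6.42% of genes, with a median of 0.69.

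The largest differences were in *Gnl3*, with 190, 180, 163, 146, 168 and 161 CPM in the positive and 77.5, 66.8, 62.0, 57.6, 147 and 69.7 CPM in the negative cells. It was higher in every library, and the arms were close only in replicate 2 labelled wt/- (log2 fold change 1.35 ± 0.13 SE, adjusted p = 2.12e-15). *Rrp1b*, a nucleolar factor of large subunit processing, followed with 1.30 ± 0.25 (adjusted p = 2.47e-05). Its positive cells were at 76.4, 68.1 and 76.4 CPM in wt/wt replicate 3 and wt/- replicates 1 and 3 but at 23.1 to 30.6 CPM in the other 3 libraries, within the range of the negative cells. *Rrp9*, which belongs to the U3 box C/D snoRNP, was higher in 6 of 6 libraries (1.07 ± 0.22, adjusted p = 9.76e-05). *Nop2*, an rRNA methyltransferase and the member whose E-box lies 60 bases before its start site, was higher in 5 of 6 (1.02 ± 0.25, adjusted p = 0.00126), with 36.5, 37.0, 40.7, 73.0, 30.6 and 55.1 CPM in positive and 22.6 to 35.3 CPM in negative cells. *Nop16* and the RNA helicase *Ddx21* were the members in which the lowest positive library (102 and 123.0 CPM) lay above the highest negative one (96.9 and 122.5 CPM), by a narrow margin in *Ddx21*. Their log2 fold changes were 1.01 ± 0.15 and 0.90 ± 0.14, and *Ppan* (0.94 ± 0.15) and *Nolc1* (0.89 ± 0.14) completed the 8 largest. How many of all genes had arms separated as in *Nop16* and *Ddx21* was not computed.

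*Npm1* and *Ncl* rose less but with the smallest errors. For *Npm1* the positive cells were at 1387, 2138, 1986, 1431, 1987 and 2193 CPM and the negative cells at 1058, 1463, 1465, 956, 2159 and 1382 CPM. Positive cells were higher in all libraries except replicate 2 labelled wt/- (log2 fold change 0.59 ± 0.05, adjusted p = 4.13e-21). *Ncl* had the same 5 libraries higher (0.55 ± 0.06, adjusted p = 5.03e-15). The snoRNP components also rose, with *Nop58* at 0.74 ± 0.10, *Nop56* at 0.66 ± 0.10, *Dkc1* at 0.66 ± 0.13, *Gar1* at 0.57 ± 0.13 and *Nhp2* at 0.56 ± 0.09. The smallest differences that passed were in *Nop10* (0.25 ± 0.07, adjusted p = 0.00802), *Fbl* (0.41 ± 0.09, adjusted p = 0.000488), *Nip7* (0.44 ± 0.14, adjusted p = 0.0177) and *Dcaf13* (0.48 ± 0.17, adjusted p = 0.0426). DESeq2 called 19 of the 38 members to which it gave an adjusted p, against 3.29% of 6288 genes. All 19 were among the 28, and *Nop10*, *Nip7*, *Dcaf13*, *Gar1*, *Bop1*, *Ltv1*, *Ftsj3*, *Noc2l* and *Nop14* were not called by it (adjusted p = 0.0569 in *Ftsj3* to 0.505 in *Bop1*).

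Tested members that did not pass were *Bysl* (0.62 ± 0.26, adjusted p = 0.105), *Mybbp1a* (0.45 ± 0.16, adjusted p = 0.0502), *Pes1* (0.40 ± 0.17, adjusted p = 0.103), *Tsr1* (0.17 ± 0.30, adjusted p = 0.779) and *Rbm28* (-0.06 ± 0.22, adjusted p = 0.909). *Mybbp1a*, *Pes1* and *Tsr1* carry the canonical E-box shown above, as do *Nop2*, *Utp18* (0.62 ± 0.16, adjusted p = 0.00324), *Wdr43* (0.66 ± 0.12, adjusted p = 1.34e-05) and *Ltv1* (0.79 ± 0.22, adjusted p = 0.00691), which were called. The members with too few UMIs to be tested were *Heatr1*, *Polr1a*, *Polr1b*, *Rrp12*, *Utp20*, *Utp15* and *Nle1*, with mean levels of 11.5 to 25.9 CPM in positive and 8.33 to 14.9 CPM in negative cells.

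**Figure D4:**
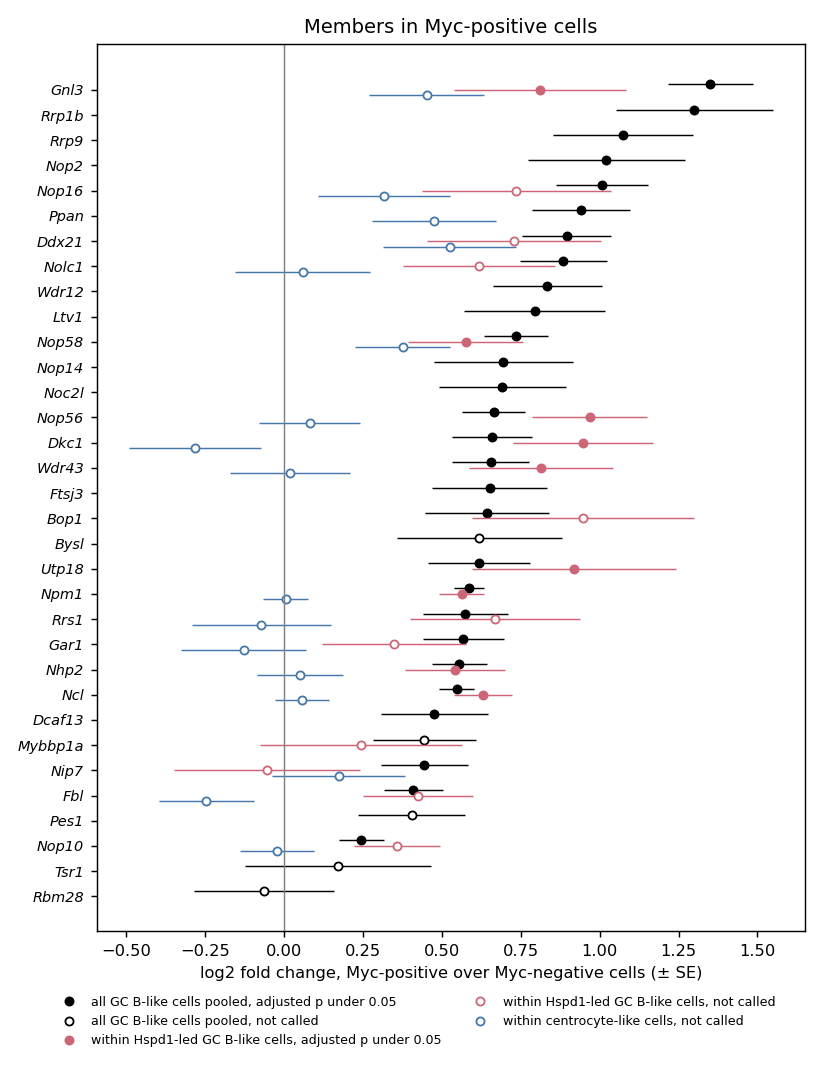
Log2 fold change of *Myc*-positive over *Myc*-negative cells (x axis, ± SE) for the 33 members tested in pooled GC B-like cells (black) and, where tested, within *Hspd1*-led (red) and CC-like cells (blue). Filled points passed an adjusted p of 0.05. The pooled points lie above 0 for 32 of the 33 members, 9 members pass within *Hspd1*-led cells and none within CC-like cells.

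The arms differed in their mix of classes as well as in *Myc*. CC-like cells made up 37.7% of positive and 8.95% of negative cells, *Hspd1*-led cells 19.5% and 11%, S-phase cells 27.5% and 38.2%, and CB-like cells 15.2% and 41.8%. When negative cells were matched on cluster and UMIs, 1 of 29 tested members was called higher (*Gnl3*, 0.68 ± 0.18, adjusted p = 0.0182) against 0.974% of 2772 genes, and the median fell to 0.18. *Gar1* (-0.13 ± 0.15), *Nop10* (-0.12 ± 0.09) and *Pes1* (-0.01 ± 0.22) were then below 0. With library and class together as a block, an alternative chosen after seeing the data, all 15 members tested were higher, with a median of 0.27. *Gnl3* (0.63 ± 0.15, adjusted p = 0.00662), *Npm1* (0.31 ± 0.06, adjusted p = 0.000179) and *Ncl* (0.25 ± 0.07, adjusted p = 0.0260) were called, against 1.61% of 1494 genes. These alternatives tested fewer genes than the comparison of pooled cells. Fewer members were also called with thinning to 1000 UMIs (6 of 25, against 2.45% of genes called higher), with at least 2 *Myc* UMIs (11 of 34, against 1.91%), with no library block (14 of 33, against 2.06%) and without *Hspd1*-led cells (17 of 31, against 4.88%).

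Within single classes, the members differed between the arms in *Hspd1*-led cells. There 9 of 19 tested members were called higher, with a median of 0.63, against 5.52% of 1593 genes (5 libraries, since replicate 2 labelled wt/- had too few positive cells). They were *Nop56* (0.97 ± 0.18), *Dkc1* (0.95 ± 0.22), *Utp18* (0.92 ± 0.32), *Wdr43* (0.81 ± 0.23), *Gnl3* (0.81 ± 0.27), *Ncl* (0.63 ± 0.09), *Nop58* (0.58 ± 0.18), *Npm1* (0.56 ± 0.07) and *Nhp2* (0.54 ± 0.16), with adjusted p from 1.59e-12 (*Npm1*) to 0.0409 (*Utp18*). In these cells the 40 members together gave a mean of 17.9 (15.5 to 22.8 over 6 libraries) of 2000 UMIs in cells without *Myc* and 25.2 (24.6 to 26.4 over the 4 libraries with enough cells) in cells with 1 *Myc* UMI. With matched negative cells 3 of 8 tested members were called higher, with a median of 0.63, against 3.17% of 630 genes.

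In CC-like cells 0 of 17 tested members were called by edgeR, with a median of 0.06, against 2.19% of 1415 genes called higher. At an unadjusted p under 0.05, 150 of these genes passed, 4 of them members, namely *Nop58* (0.38 ± 0.15, adjusted p = 0.244), *Ddx21* (0.53 ± 0.21, adjusted p = 0.252), *Gnl3* (0.45 ± 0.18, adjusted p = 0.254) and *Ppan* (0.47 ± 0.20, adjusted p = 0.281). Without replicate 2 labelled wt/- the count was again 0 of 17, with a median of 0.08, against 30 of 1457 genes called higher. With matched negative cells the median turned to -0.08, with 6 members higher and 11 lower. There too 0 of 17 were called, against 16 of 1199 genes called higher. CC-like cells gave 15 (6 libraries), 15.7 and 17.2 (5 libraries each) member UMIs of 2000 at 0, 1 and at least 2 *Myc* UMIs. No member was called in CB-like cells (0 of 19 tested, median -0.05, 0.0596% of genes called higher, 184 genes at an unadjusted p under 0.05), in S-phase cells (0 of 25, median 0.03, 0% of genes called higher, 158 at an unadjusted p under 0.05) or in naive/memory-like cells (0 of 6 over 4 libraries, 0 of 1256 genes called, 44 genes at an unadjusted p under 0.05). DESeq2 was not run within classes.

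The difference between the *Myc*-positive effects of *Hspd1*-led and CC-like cells was tested directly, as an alternative chosen after seeing the data. It was larger in *Hspd1*-led cells for 15 of 17 members, with a median of 0.51, and 5 were called, against 3.06% of 1404 genes. *Dkc1* was at -0.28 ± 0.21 in CC-like and 0.95 ± 0.22 in *Hspd1*-led cells (difference 1.26 ± 0.29, adjusted p = 0.00120). The difference was 0.92 ± 0.24 for *Nop56* (adjusted p = 0.00756), 0.70 ± 0.23 for *Fbl* (adjusted p = 0.0469), 0.60 ± 0.12 for *Ncl* (adjusted p = 0.000299) and 0.58 ± 0.10 for *Npm1* (adjusted p = 1.32e-05). Without replicate 2 labelled wt/-, 4 of 18 members were called, with a median of 0.50, against 1.95% of 1439 genes. Light zone markers moved with the arms in both classes. Of the 9 markers, 5 of 8 tested were called higher in *Myc*-positive CC-like cells (summed level 4264 to 6522 against 2579 to 4929 non-Ig CPM) and 3 of 3 in *Hspd1*-led cells (776 to 2290 against 314 to 481 in the 5 libraries of that test). In *Hspd1*-led cells 3 of 4 tested plasma lineage markers were called lower (*Jchain*, *Mzb1* and *Slamf7*, median of the 4 -0.67), with a summed level of the 10 markers of 1598 to 2851 in positive against 2868 to 3337 non-Ig CPM in negative cells. *Prdm1* and *Tnfrsf17* were at 0 in both arms and *Sdc1* in positive cells. All 11 G2/M markers had a fold change below 0 there (median -0.39), 3 of them called (*Mki67*, *Ccnb2* and *Nusap1*), at 2130 to 3481 against 3710 to 4066 non-Ig CPM. In CC-like cells 1 of 4 tested plasma lineage markers was called lower (*Jchain*) and 0 of 3 G2/M markers were called by edgeR (median 0.26). The part of these markers in the members' differences was not tested.

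Other genes of the pathway, outside the members, were higher in *Myc*-positive cells in part. Of 97 other ribosome biogenesis genes, 78 were tested, of which 26 were called higher and 1 lower (median 0.39), where 7.80% of all genes were called higher, led by *Grwd1* (1.20 ± 0.22), *Mrto4* (1.02 ± 0.14) and *Gnl2* (0.85 ± 0.20). Of 20 other *Myc* targets, 14 of 18 tested were called higher (median 0.52), with the largest differences in the cell cycle gene *Ccnd2* (3.07 ± 0.19), in *Srm* (1.39 ± 0.14), the spermidine synthase, and in *C1qbp* (1.07 ± 0.09). Of the *Myc* network 5 genes were tested and 1 was called, *Mxd3*, a MAX partner that opposes MYC, which fell by 0.89 (SE 0.26). Ribosomal protein genes, the products rather than the builders of the subunit, had a median of 0.06, with 14 of 83 called higher. With library and class as a block, 2 of 18 other ribosome biogenesis genes (median 0.18), 6 of 14 other *Myc* targets (median 0.22) and 0 of 82 ribosomal protein genes were called by edgeR.

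Markers of cell states moved with the arms too. Light zone markers were called higher for 8 of 9 (median 1.46, *Nfkbia* 2.25 ± 0.10, *Il4i1* 2.12 ± 0.11, *Bcl2a1d* 1.83 ± 0.14), with a summed level of 2246 to 3292 in positive against 753 to 1303 non-Ig CPM in negative cells. All 11 G2/M markers were called lower (median -0.48, *Cenpf* -0.73 ± 0.13, *Cdc20* -0.70 ± 0.10, *Ccnb2* -0.67 ± 0.10), and of the S-phase markers 1 of 11 was called, *Hells* (0.34 ± 0.11). With library and class as a block 0 of 11 G2/M markers were called (median -0.07), while 3 of 3 tested light zone markers were called higher. *Lck*, the only T-cell marker tested, was called higher (0.64 ± 0.14), while *Cd4*, *Cd8a* and *Cd8b1* had no UMI in positive cells and the 11 T-cell markers summed to 0 to 301 against 53.1 to 117 non-Ig CPM. *Jchain* (-0.40 ± 0.05), *Mzb1* (-0.40 ± 0.06), *Hbb-bs* (-1.35 ± 0.22) and *Hbb-bt* (-0.52 ± 0.18) were called lower. The part of these differences in the values of the members was not tested.

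The *Myc*-positive effect did not differ detectably between the genotype labels. In a test of the interaction, 0 of 33 members and 0 of 4703 genes (0%) were called by edgeR, while 198 genes had an unadjusted p under 0.05. The count was also 0 without replicate 2 labelled wt/-. DESeq2 was not run for the interaction.

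Comparing wt/- with wt/wt libraries within each class, no member was called in any of the 9 tests (CB-like, S-phase, CC-like, *Hspd1*-led, naive/memory-like, PB-like, plasma-lineage-like, haemoglobin-led and all kept cells). The share of all genes called by edgeR was 0% in each, while 133 to 345 genes per test had an unadjusted p under 0.05. With DESeq2, 0 members and 0 to 2 genes were called. The median log2 fold change of the members was 0.00 in S-phase, -0.02 in *Hspd1*-led, -0.06 in haemoglobin-led, -0.07 in CC-like, -0.10 in CB-like and -0.17 in naive/memory-like cells, and -0.28 over all kept cells, where 39 of 40 members were lower. Leaving out replicate 2 labelled wt/- gave -0.06, -0.10, -0.03, -0.06, -0.11 and -0.16 in the same order, and -0.07 over all kept cells, where 34 of 40 were lower. Other single libraries also moved these medians. The median in CB-like cells was -0.01 (19 members higher and 21 lower) without wt/wt replicate 1, and without that library it was also nearer to 0 in CC-like (-0.04) and naive/memory-like cells (-0.10). In *Hspd1*-led cells it was -0.05 without wt/wt replicate 2 and turned to 0.01 without wt/- replicate 1 and 0.05 without wt/- replicate 3. In haemoglobin-led cells it was -0.12 without wt/wt replicate 3 or wt/- replicate 1. In S-phase cells it ran from -0.06 without wt/- replicate 2 to 0.06 without wt/wt replicate 1, with -0.05 and -0.04 without wt/wt replicates 3 and 2 and 0.05 and 0.02 without wt/- replicates 3 and 1. *Myc* overlapped between the labels in every class.

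PB-like cells, short-lived and dividing precursors of plasma cells, had the largest of these median differences. The 40 members summed to 5677, 6273 and 6632 non-Ig CPM in the wt/wt and to 5314, 2429 and 4042 in the wt/- libraries, so that every wt/- library lay below every wt/wt library. Of 35 members tested, 33 had a fitted log2 fold change below 0 and 31 a lower mean CPM in wt/- cells, with a median log2 fold change of -0.62 where all genes had 0.00, and without replicate 2 labelled wt/- 30 of 35 had a fold change below 0, with a median of -0.42. In 14 of the 35, every wt/- library was below every wt/wt library, against 5.77% of 5706 genes. Without replicate 2 this held for 14 of 35 members and 8.36% of genes. None passed the adjusted threshold. PB-like cells were tested on their own as an alternative chosen after seeing the data.

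*Ddx21* had the lowest unadjusted p, with 108, 121 and 124 CPM in the wt/wt and 66.2, 66.0 and 68.0 CPM in the wt/- libraries, a gap wider than the spread within either group (log2 fold change -0.82 ± 0.19, adjusted p = 0.748, and -0.84 ± 0.19 without replicate 2). *Nop56* was at 189, 158 and 161 against 125, 59.6 and 99.5 CPM (-0.85 ± 0.27, adjusted p = 0.748). *Rrp1b* was at 33.1, 41.4 and 38.8 against 29.4, 12.2 and 15.2 CPM (-1.07 ± 0.35, adjusted p = 0.748). In all 3 genes the groups did not overlap. Replicate 2 labelled wt/- was the lowest library, by a margin of less than 1 CPM in *Ddx21*, and without it the log2 fold changes of *Nop56* and *Rrp1b* were -0.60 ± 0.20 and -0.83 ± 0.32. Every wt/- library was also below every wt/wt library in *Ncl*, *Nop58*, *Rbm28*, *Wdr12*, *Bop1*, *Nolc1*, *Rrp9*, *Rrs1*, *Nhp2*, *Nip7* and *Tsr1*, although replicate 2 was the highest wt/- library for *Rbm28* and *Tsr1*. The margin was very narrow in *Nop58*, with 159.28 CPM in wt/- replicate 1 against 159.33 in wt/wt replicate 1. It was also narrow in *Nip7*, with 63.71 CPM in wt/- replicate 1 against 63.81 in wt/wt replicate 2. *Myc* went the other way without passing (9.02, 5.60 and 17.0 against 33.1, 21.8 and 9.13 CPM, 0.92 ± 0.53, adjusted p = 0.748), from 3 to 41 UMIs per library.

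Several other measures are given for the same PB-like cells, and not all moved with this difference in every library. Of 97 other ribosome biogenesis genes 86 were tested, 76 were lower and 10 higher in wt/- PB-like cells (median -0.33), and all 19 tested other *Myc* targets were lower (median -0.58), with 0 called in either list. The 11 S-phase markers summed to 3479, 2522 and 2488 in the wt/wt and 3017, 803 and 1810 in the wt/- libraries. Here wt/- replicate 1 was above wt/wt replicates 2 and 3. The 11 G2/M markers summed to 1926, 2352 and 2548 in the wt/wt and 2606, 1074 and 2895 in the wt/- libraries. Of the wt/- libraries only replicate 2 was below the wt/wt libraries in that list. The 10 plasma lineage markers, none at 0 in any library, summed to 24188, 25781 and 19081 against 28129, 110810 and 30364 non-Ig CPM. The 12 myeloid markers summed to 12.6 to 40.1 in the wt/wt libraries and to 21.6, 669 and 63.8 in the wt/- libraries, with 4 to 10 of the markers at 0 in every library except replicate 2 labelled wt/-, where none was. That library also held 329 of the 566 PB-like cells, with a median of 1521 genes per cell against 2786.5 to 3709 elsewhere. The other libraries held 21 to 66 PB-like cells each. The part of these measures in the members' difference was not tested. When PB-like and PC-like cells were pooled as plasma-lineage-like cells, the median was -0.61, and -0.35 without replicate 2 labelled wt/-. Of these cells, PB-like cells made up 61.8, 71.6 and 70.7% in the wt/wt and 80.3, 18.8 and 78.6% in the wt/- libraries. There 8 of 35 members did not overlap, against 4.82% of 5876 genes (without replicate 2 labelled wt/-, 8 of 35 and 7.83%), and *Ddx21* (-0.85 ± 0.20), *Rbm28* (-0.85 ± 0.27) and *Nop56* (-0.81 ± 0.28) had the lowest unadjusted p.

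**Figure D5:**
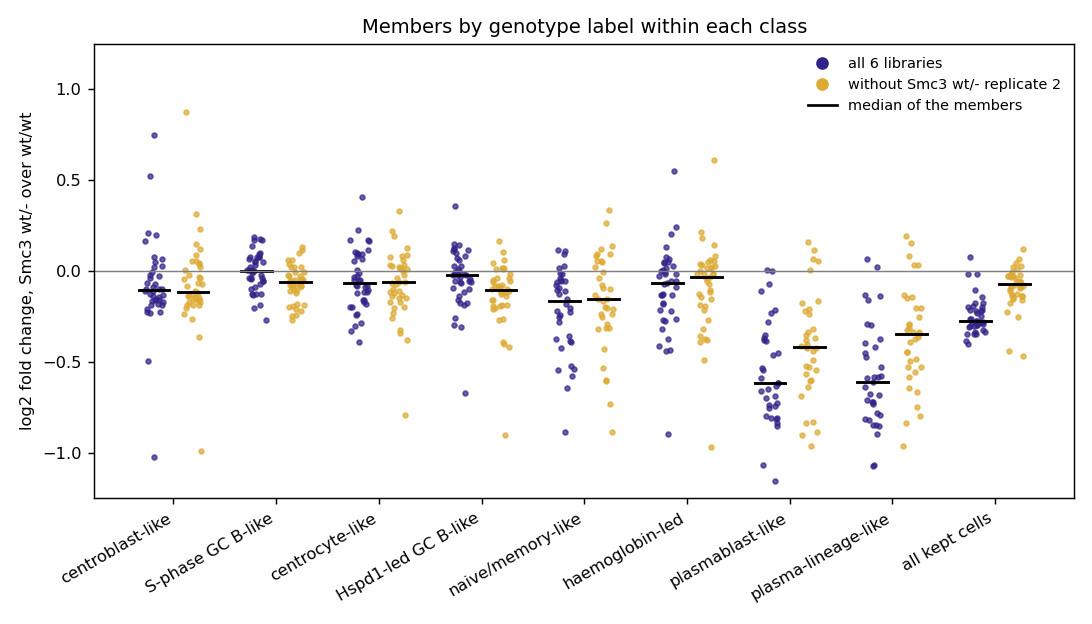
Log2 fold change of *Smc3* wt/- over wt/wt libraries (y axis) for each tested member within each class (x axis), with all 6 libraries (dark) and without replicate 2 labelled wt/- (yellow). Bars are medians over the members. The median lies furthest below 0 in PB-like and plasma-lineage-like cells. In CB-like cells 30 of 40 members lie below 0 (28 without replicate 2 labelled wt/-), without that library 31 of 40 do in S-phase and 32 of 40 in *Hspd1*-led cells, and no member passed an adjusted p of 0.05.

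In CB-like cells 5 of 40 members had every wt/- below every wt/wt library, *Nop58*, *Ddx21*, *Mybbp1a*, *Ppan* and *Dcaf13*, against 5.04% of 9658 genes (8 of 40 and 9.26% without replicate 2 labelled wt/-), and *Nop10* had the reverse, against 4.28% of genes. *Ppan* had the lowest unadjusted p in CB-like cells, with 44.0, 39.3 and 37.9 against 29.1, 14.1 and 32.6 CPM (-0.50 ± 0.20, adjusted p = 0.9998, and -0.36 ± 0.14 without replicate 2 labelled wt/-). It was also lowest in S-phase cells (80.6, 70.9 and 66.0 against 64.7, 55.2 and 56.9 CPM, -0.27 ± 0.14, adjusted p = 0.99999), again without overlap (1 of 40 members, against 4.40% of 9698 genes, and 3 of 40 against 8.15% without replicate 2 labelled wt/-), followed by *Utp18* (-0.20 ± 0.18) and *Ltv1* (-0.19 ± 0.17), which overlapped. *Rrp12* (0.75 ± 0.41) and *Utp20* (-1.03 ± 0.61) in CB-like cells rested on 1 to 36 UMIs per library and overlapped.

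In CC-like cells *Rrp1b* was the only member higher in all wt/- libraries (66.6, 71.8 and 58.8 against 50.2, 52.8 and 45.3 CPM, 0.41 ± 0.19, adjusted p = 0.9999, and 0.33 ± 0.18 without replicate 2 labelled wt/-), against 3.65% of 7456 genes. *Nop14* (-0.30 ± 0.22) and *Ftsj3* were lower in all wt/- libraries, against 4.60% of genes, and *Tsr1* (-0.33 ± 0.21) overlapped. When replicate 2 labelled wt/- was left out, 5 of 40 members were lower in the other wt/- libraries than in every wt/wt library, against 8.18% of genes.

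In *Hspd1*-led cells *Heatr1*, a factor of rRNA transcription and small subunit processing, was at -0.67 ± 0.31 and at -0.90 ± 0.19 without replicate 2 labelled wt/- (adjusted p = 0.9999 and 0.9998), and *Wdr43* was at -0.26 ± 0.17. *Tsr1* was lower in all wt/- libraries (33.4, 23.8 and 29.0 against 35.9, 37.3 and 38.2 CPM, -0.31 ± 0.16, adjusted p = 0.9999, and -0.27 ± 0.14 without replicate 2). It was 1 of 3 such members among 40, against 4.83% of 9241 genes, and without replicate 2 labelled wt/- there were 8 of 40, against 8.94% of genes.

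In naive/memory-like cells 4 of 36 members were lower in all wt/- libraries, namely *Polr1a*, *Ftsj3*, *Gar1* and *Nip7*, against 2.94% of 7083 genes (5 of 36 and 6.93% without replicate 2 labelled wt/-). *Polr1a* was at 10.8, 14.2 and 14.5 against 7.24, 7.37 and 7.59 CPM (-0.89 ± 0.34, adjusted p = 0.9998, and -0.89 ± 0.43 without replicate 2 labelled wt/-). *Ftsj3*, an rRNA methyltransferase of the large subunit pathway, was at 40.3, 36.8 and 35.2 against 15.9, 26.8 and 27.5 CPM (-0.64 ± 0.27, adjusted p = 0.9998, and -0.73 ± 0.30 without that library). *Dcaf13* (-0.54 ± 0.29) overlapped.

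In haemoglobin-led cells *Nop58* (-0.32 ± 0.16), *Utp20* (-0.90 ± 0.46) and *Ltv1* (-0.44 ± 0.24) had the lowest unadjusted p, with -0.32 ± 0.15, -0.97 ± 0.48 and -0.38 ± 0.20 without replicate 2 labelled wt/-. *Ltv1*, *Bop1* and *Ftsj3* were lower in all wt/- libraries there, 3 of 39 members against 4.59% of genes (5 of 39 and 8.47% without replicate 2 labelled wt/-). Over all kept cells these were *Ddx21* (-0.29 ± 0.14), *Tsr1* (-0.30 ± 0.18) and *Utp20* (-0.35 ± 0.23), each with every wt/- below every wt/wt library (6 of 40 members, against 4.37% of genes, and 8 of 40 against 8.34% without replicate 2 labelled wt/-), and their values without replicate 2 labelled wt/- were -0.22 ± 0.10, -0.15 ± 0.11 and -0.47 ± 0.16. None of these differences passed the threshold.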

How the data were processed

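Whole-number UMI counts per gene and cell barcode were deposited by the authors as one matrix per library, made with Cell Ranger on mm10 per the submitters' processing notes, which also name R 4.0.2 and Seurat 4.0.0. Additional wild-type libraries of the study were not analysed here. Total depth was 5223320 to 35354300 UMIs per library. Cells with at least 500 genes and at most 10% mitochondrial UMIs were kept (21568 of 22939 barcodes), and the 759 cells with the highest Scrublet scores, at 0.8% per 1000 barcodes of a library, were removed as likely doublets. Libraries were integrated (reciprocal PCA anchors) and clustered in Seurat 5.3.0 (resolution 0.5) on 1793 of 2000 variable genes, leaving out immunoglobulin, mitochondrial and ribosomal protein genes, the members, other ribosome biogenesis genes, the *Myc* network and other *Myc* targets, *Hspd1* among them. S-phase, G2/M and light zone markers were not left out, so differences of these between classes are no result. Of 16 clusters 2 stayed unnamed.

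UMIs were summed per library and class (at least 20 cells) and compared between genotype labels with the edgeR 4.0.16 quasi-likelihood test (R 4.3.3, limma 3.58.1, TMM scaling, Benjamini-Hochberg adjustment over all genes tested). *Myc*-positive and *Myc*-negative cells were compared by the same test on cells thinned to 2000 UMIs, with library as a block and at least 10 cells per arm. DESeq2 1.42.0 was an alternative. CPM in the tests use all UMIs summed with TMM scaling, whereas levels and marker sums across classes leave out immunoglobulin UMIs and use no TMM scaling. Shares carry counting error only and were compared by exact permutation tests over libraries. The scripts were tested on simulated data.

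Every member enters the counts. Named with values were *Myc*, the 8 largest and 4 smallest called differences and all members not called in the *Myc* comparison, the 4 most and 4 least variable members over classes, the 3 members with the lowest unadjusted p in each genotype test, the 3 largest called genes of each other list, and members by role. Members whose groups did not overlap were named after their values were seen. The members and gene lists were chosen with earlier results of these data known. Deviations of libraries with the same replicate number from their group means correlated at r = 0.12 to 0.28 for all 3 numbers in CB-like, S-phase, naive/memory-like and PB-like cells, and not for all 3 in the other classes.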

Additional observations from a re-analysis of the deposited data

Results flagged for a closer look

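The difference in *Myc*-positive cells varied between GC classes by a direct test (edgeR quasi-likelihood interaction of arm and class, chosen after seeing the data). Of 17 members tested, 5 passed, each with a larger difference in *Hspd1*-led than in CC-like cells, against 3.06% of 1404 genes called in that direction. Without wt/- replicate 2, 4 of 18 members and 1.95% of genes passed. The difference on the log2 scale was 1.26 for *Dkc1*, 0.92 for *Nop56*, 0.70 for *Fbl*, 0.60 for *Ncl* and 0.58 for *Npm1*.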

How the results depend on the processing

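In pooled GC B-like cells 648 genes and 28 of 33 members were called between the *Myc* arms. The number of genes was 334 with DESeq2, 122 with thinning to 1000 UMIs, 4709 with no thinning, 399 with at least 2 *Myc* UMIs, 35 with matched cells, 119 with no library block, 357 without *Hspd1*-led cells, 29 with library and class as a block, and 430 to 644 with a library left out. The members called were 6 of 25 tested with thinning to 1000 UMIs (2.45% of all genes tested called higher), 11 of 34 with at least 2 *Myc* UMIs (1.91%), 1 of 29 with matched cells (0.974%), 14 of 33 with no library block (2.06%), 17 of 31 without *Hspd1*-led cells (4.88%) and 3 of 15 with library and class as a block (1.61%), and the median of those tested was 0.88 with no thinning, 0.18 with matched cells and 0.27 with library and class as a block. Matched cells gave a member median of 0.23 in CB-like cells, where 3 members were tested, and -0.08 in CC-like cells (0.06 before). In *Hspd1*-led cells they gave 3 of 8 tested members called higher, against 3.17% of 630 genes. No thinning gave 1 of 37 tested members called higher in CC-like cells, against 129 of 5111 genes. Directions turned for *Gar1* (-0.13), *Nop10* (-0.12) and *Pes1* (-0.0080) with matched cells, *Dcaf13* with thinning to 1000 UMIs (-0.16) and at least 2 *Myc* UMIs (-0.19), *Tsr1* with at least 2 *Myc* UMIs (-0.96) and with a library left out (-0.23 without wt/wt replicate 1, to 0.33 without wt/- replicate 3), and *Rbm28* with no thinning (0.41), at least 2 *Myc* UMIs (0.17), immunoglobulin genes left out (0.27), a looser cell filter (0.27), and with a library left out (-0.16 to 0.057, above 0 without wt/wt replicate 3, and without wt/- replicate 1 at 0.0070). The alternatives without *Hspd1*-led cells and with library and class as a block were chosen after seeing the data.

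Genotype calls over all genes were 0 in each class. With no low-count filter they were 37 in CC-like, 36 in naive/memory-like, 170 in PB-like, 5 in plasma-lineage-like and 33 in haemoglobin-led cells, with DESeq2 2 in S-phase and 2 in *Hspd1*-led cells, and with no integration 1 in CB-like, 1 in *Hspd1*-led and 3 in haemoglobin-led cells. Leaving out a library gave 0 to 1 in CB-like, S-phase, PB-like and plasma-lineage-like cells (1 without wt/- replicate 2) and 0 to 6 in haemoglobin-led cells (1 without wt/wt replicate 3, 6 without wt/- replicate 1). The member median was -0.11 in CC-like cells without TMM scaling and -0.0062 in naive/memory-like cells with no integration. With no integration it was also -0.11 in *Hspd1*-led cells (10 members higher and 30 lower). It was then -0.05 in S-phase (13 higher and 27 lower) and -0.04 in CC-like cells. *Utp18* in S-phase cells was at 0.020 with no integration. With the replicate number as a block, 0 genes were called in every class and the member median was -0.13 in CB-like and -0.66 in PB-like cells. The difference in the *Myc*-positive share (0.705 percentage points) was -0.335 with at least 2 *Myc* UMIs, -0.375 with no integration, -0.025 with a looser cell filter, 0.128 with thinning to 1000 UMIs, 0.170 without immunoglobulin genes, and -0.725 to 2.89 with a library left out (-0.394 without wt/wt replicate 2, -0.381 without wt/wt replicate 3). The causes were not tested.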
